A study of Mus musculus with 912 samples.

Results

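The 4 Egr genes and the 2 Nab corepressor genes were followed across the nuclei of the mouse hippocampus before and after exposure to an unfamiliar environment (NE). The 6 members, Egr1, Egr2, Egr3, Egr4, Nab1 and Nab2, were chosen by gene name and not by their values. They are 6 of the 42772 genes with a complete row in the deposited count table. In short, CA1 FOS+ nuclei held more Egr transcript than FOS− nuclei of the same animal for all 4 Egr genes, in 3 of 3 animals. FOS− nuclei with high Arc transcript had been left out before this comparison. In DG 1 h after the exposure, Egr2 was detected in 8 of 26 FOS+ nuclei, 1 of 27 FOS− nuclei and 0 of 25 nuclei from the home cage. Egr3 and Egr4 were not detected in any of 86 interneuron nuclei, nor Egr3 in any subiculum nucleus. Among ARC+ DG nuclei after a second exposure to the same environment, Egr4 was higher by 0.77 (log2 scale) in FOS+ than in FOS− nuclei over 6 animals each. Of these animals 4 gave both kinds of nuclei, and with those paired the exact permutation p was 0.125, the smallest possible. Nab2 was higher by 1.2 in FOS− nuclei after this second exposure than after a single exposure. Between FOS+ and FOS− nuclei after the second exposure, the direction for Nab2 depended on the measure. Its mean over animals was 2.64 in FOS+ and 2.22 in FOS− nuclei. Its share of all counts was lower in FOS+ (15846 of 205566977) than in FOS− nuclei (25673 of 276277963). No member passed the edgeR test in any of 26 comparisons, and several differences rest on 1 or a few animals.

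The EGR proteins are zinc-finger transcription factors that bind GC-rich sites. Egr1 (also called Zif268) is a classical immediate-early gene (IEG) of active neurons, needed for lasting synaptic plasticity, and Egr3 has been tied to memory and to GABA receptor expression. Egr2 (Krox20) is best known for hindbrain patterning and myelination but is also induced by activity, as is Egr4. NAB1 and NAB2 have no DNA-binding domain of their own: they attach to EGR proteins and recruit a chromatin-remodelling and deacetylase complex, and Nab2 is itself induced by EGR proteins, which closes a feedback loop.

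All animals were wild-type C57BL6 female mice of 7.75 to 9 weeks of age, and each library was made from 1 nucleus by SmartSeq2. In the first experiment, 360 nuclei came from mice left in the home cage (HC) or killed 1 h after a 15-min NE. They had been stained for NEUN, PROX1, CTIP2 and FOS protein, the HC nuclei were all FOS− and the 1 h nuclei FOS+ or FOS−, and cell types are the authors' predictions (DG granule cells, CA1, CA3, subiculum, VIP, Pvalb and Ivy interneurons, and a few nuclei labelled Th that entered no comparison). In the later experiments, 552 DG nuclei (PROX1+CTIP2+) were sorted as ARC+ after exposure to environment A. These nuclei were FOS− at 4 h or 5 h after a single exposure, or FOS+ or FOS− 1 h after a second exposure, given 4 h after the first, to the same environment (A>A) or to a different one (A>C). ARC protein lasts for hours but is also present beside FOS at 1 h, so ARC+FOS+ nuclei may have been active at both exposures or at the second alone, which the sort cannot tell apart.

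On GRCm38, Egr1 lies at chr18:34859823-34864984 on the plus strand, Egr2 at chr10:67535475-67542188 (plus), Egr3 at chr14:70077203-70082614 (plus) and Egr4 at chr6:85511121-85513589 (minus). Nab1 lies at chr1:52457294-52500679 (minus) and Nab2 at chr10:127660918-127668568 (minus). Egr2 and Nab2 therefore share a chromosome but are far apart. Nab2 overlaps genes of the opposite strand, by 40 bases with Stat6, 1646 with Gm16229 and 1668 with Nemp1. The libraries do not keep strand, so reads from the overlap cannot be told apart, and the other 5 members overlap no annotated gene.

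After thresholds on reads and genes, 818 of 912 nuclei remained. A further 35 FOS− nuclei of the HC and 1 h groups, with Arc transcript above 2.5 on the log2(TPM+1) scale, were left out, which gave 783 nuclei from 31 animals. The median nucleus had 1251690 counts in all (142275 to 5885216). Group medians were lowest in FOS− VIP nuclei at 1 h (344915) and in DG nuclei at 5 h (426841), and highest in DG nuclei at 4 h (2469299). The labelled types carried their own markers, though not exclusively. Slc17a7 was present in each principal group. The summed level of Gad1, Gad2 and Slc32a1 was 15.6 to 19.2 in the VIP groups and 0.51 to 0.74 in the CA1 groups. In DG it was 6.13 in 1 h FOS+ nuclei and 2.66 to 5.11 in the other groups. The sum of Prox1, C1ql2 and Dsp was 8.90 to 12.9 in the DG groups and 3.92 to 4.30 in the VIP groups. For the CA1 markers Wfs1, Fibcd1 and Mpped1, the sum in subiculum FOS+ nuclei (8.81) was little below that in CA1 FOS+ nuclei. It was 3.88 in subiculum against 11.0 in CA1 for FOS− nuclei, and 8.10 against 15.2 for HC nuclei. Values are log2(TPM+1), where TPM scales transcripts for length and depth, and a gene is called detected in a nucleus above 1. The animal is the replicate throughout. Both 1 h DG groups came from 1 mouse, and HC DG sums from 2 mice with 18 and 5 nuclei.

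Egr2 and Egr4, to which several comparisons return, are shown with the 250 bases before a start site (RefSeq, GRCm38.p6). The Egr2 window is 1 of 5 listed for this gene and was taken where the start coincides with an annotated transcript start. SRF, which responds to ERK signalling with its ternary complex factors, binds CArG boxes, and CREB binds cAMP response elements, whose core is TGACG. Capitals mark these matches. Each motif was searched on both strands, so a core may be printed as its reverse complement.
Egr2, chr10:67537619-67537868, plus strand: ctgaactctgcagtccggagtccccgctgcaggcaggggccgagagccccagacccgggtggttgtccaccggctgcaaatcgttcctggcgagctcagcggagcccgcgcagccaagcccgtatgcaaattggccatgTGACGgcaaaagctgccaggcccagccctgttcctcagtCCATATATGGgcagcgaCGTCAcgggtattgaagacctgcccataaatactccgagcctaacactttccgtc
Egr4, chr6:85513590-85513839, minus strand: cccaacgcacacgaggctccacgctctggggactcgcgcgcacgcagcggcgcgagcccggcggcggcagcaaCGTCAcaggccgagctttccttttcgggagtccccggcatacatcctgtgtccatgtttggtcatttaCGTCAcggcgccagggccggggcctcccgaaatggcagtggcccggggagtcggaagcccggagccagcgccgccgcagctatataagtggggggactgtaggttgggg
In Egr2 a CArG box began 72 bases before the start and CRE cores began 111 and 55 bases before it. In Egr4 the cores began 177 and 109 bases before the start, and no CArG box matched in this window. Of 32851 promoter windows of 300 bases, 1.63% held a CArG box and 20.8% a CRE core. The site bound by EGR proteins, GCGNGGGCG, was in 5.55% of the windows, with 3 matches in that of Nab1 and none in those of Egr2, Egr4 and Nab2. A match describes letters only. No window for Egr1 or Egr3 was read.

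Before exposure, Egr1 was the member with the clearest difference in mean log2(TPM+1) between cell types. In HC CA1 nuclei the animal means of Egr1 were 4.05, 4.64 and 2.42, and Egr1 was detected in 12 of 19 nuclei (63.2%, exact 95% interval 38.4 to 83.7). In HC subiculum the means were 4.19 and 1.60. HC DG animals gave 1.81 and 0.26, and HC VIP animals 0, 0.64 and 1.57, so that the CA1 animals lay above all DG and VIP animals without overlap. The edgeR log2 fold change of Egr1 in VIP against CA1 was −2.98 ± 2.03 (SE), with an adjusted p of 0.72. In each of 4 comparisons between HC cell types edgeR called 0 of the 3 members with enough counts to be tested. The share of all genes called was 0.0197% for CA1 against DG, 0.0328% for VIP against DG, and 0% for VIP and for subiculum against CA1, where 1371 and 812 genes had an unadjusted p under 0.05. Egr2 was at or near 0 before exposure: it was found above 1 in 1 of 19 CA1, 1 of 10 subiculum, 0 of 25 DG and 0 of 22 VIP nuclei. Nab2 was detected in 42.1% of HC nuclei in CA1, 40.0% in subiculum, 36.0% in DG and 31.8% in VIP interneurons, so the corepressor was found in nuclei of each of these types before exposure.

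**Figure D1:**
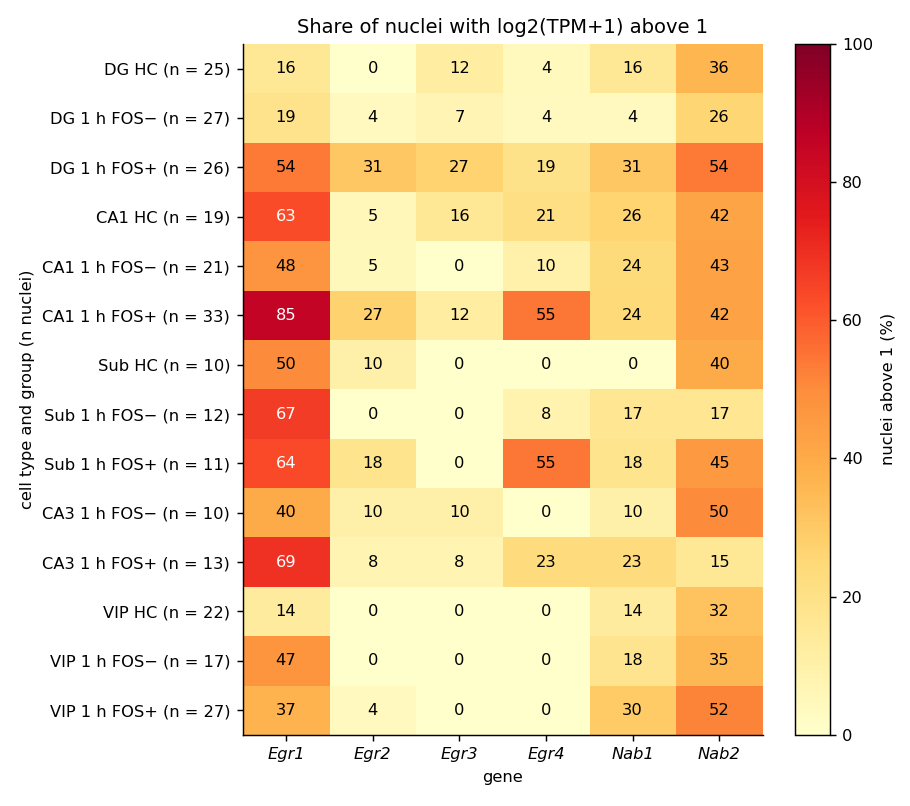
Share of nuclei with log2(TPM+1) above 1 for each member (columns) in the cell types and groups of the first experiment (rows, with the number of nuclei). Numbers and colour give the percentage. Egr1 reached 84.8% in CA1 FOS+ nuclei, while Egr3 and Egr4 stayed at 0 in the 3 VIP groups.

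In CA1, FOS+ nuclei were compared with FOS− nuclei of the same 3 animals 1 h after the NE. Egr1 averaged 6.76, 7.32 and 3.53 in the FOS+ nuclei of these animals and 3.82, 0.23 and 0.30 in their FOS− nuclei. Egr4 averaged 3.68, 1.51 and 2.38 against 0.72, 0 and 0. Egr2 averaged 1.86, 0.57 and 1.67 against 0.26, 0 and 0, and Egr3 0.32, 0.83 and 0.85 against 0 in each. FOS+ was thus higher in 3 of 3 animals for each Egr gene. How many of all genes did so was not counted, and edgeR called 0% of genes in this comparison. The mean difference within animals was 4.42 ± 2.32 (SD, n = 3) for Egr1, 2.29 ± 0.73 for Egr4, 1.28 ± 0.61 for Egr2 and 0.67 ± 0.30 for Egr3. An exact permutation within 3 pairs cannot go below p = 0.25, the value each gave. Left out of the FOS− side were 11 nuclei of 2 animals with high Arc transcript. Egr1 averaged 4.81 in them against 2.46 in the 21 kept, Egr4 0.54 against 0.45, Egr2 0.41 against 0.16 and Egr3 0 in both. The count of 3 of 3 was not repeated with these nuclei put back.

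Egr4 was detected in 18 of 33 CA1 FOS+ nuclei (54.5%, exact interval 36.4 to 71.9) and in 2 of 21 FOS− nuclei (9.52%, 1.17 to 30.4). HC CA1 nuclei, with 21.1% for Egr4 and 5.26% for Egr2, lay between the FOS− and FOS+ nuclei in Egr4 and near the FOS− nuclei in Egr2. Egr3 was detected in 3 of 19 HC nuclei (15.8%), next to 4 of 33 FOS+ nuclei (12.1%) and 0 of 21 FOS− nuclei, and the HC animals averaged 1.03, 0 and 0. The corepressors showed no such contrast. Nab1 was higher in FOS+ nuclei in 1 animal, lower in 1 and at 0 in both groups of the third. Nab2 was detected in 42.4% of FOS+ and 42.9% of FOS− nuclei, and its mean difference was −0.19 ± 1.35 (SD, n = 3).

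In the edgeR fit of CA1 sums, the log2 fold change of FOS+ over FOS− was 3.84 ± 1.87 (SE) for Egr1, 7.39 ± 2.5 for Egr2 and 4.21 ± 2.48 for Egr4. Egr3 had 85 counts in the FOS+ sums and 0 in the FOS− sums, at least 14.8-fold higher in the share of all counts (floor of 3 counts over the group). By this test 0 of 6 members and 0% of 14507 genes were called, although 629 genes had an unadjusted p under 0.05. DESeq2 called Egr2 (adjusted p = 0.034) and Egr3, among 1.67% of genes, and limma called no member. Between FOS− and HC nuclei edgeR called 0 of 6 members (0% of genes, 730 below an unadjusted p of 0.05), and DESeq2 called Egr3, which was lower in FOS− nuclei (1.99% of genes). In the edgeR fit 0 of 6 members were higher in FOS− than in HC nuclei. Egr1 averaged 1.45 over FOS− and 3.70 over HC animals, and the highest HC animal (4.64) lay above the lowest FOS+ animal (3.53). When the Arc-high FOS− nuclei were put back, the edgeR log2 fold change of FOS+ over FOS− was 2.80 for Egr1, 5.42 for Egr2 and 3.85 for Egr4.

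**Figure D2:**
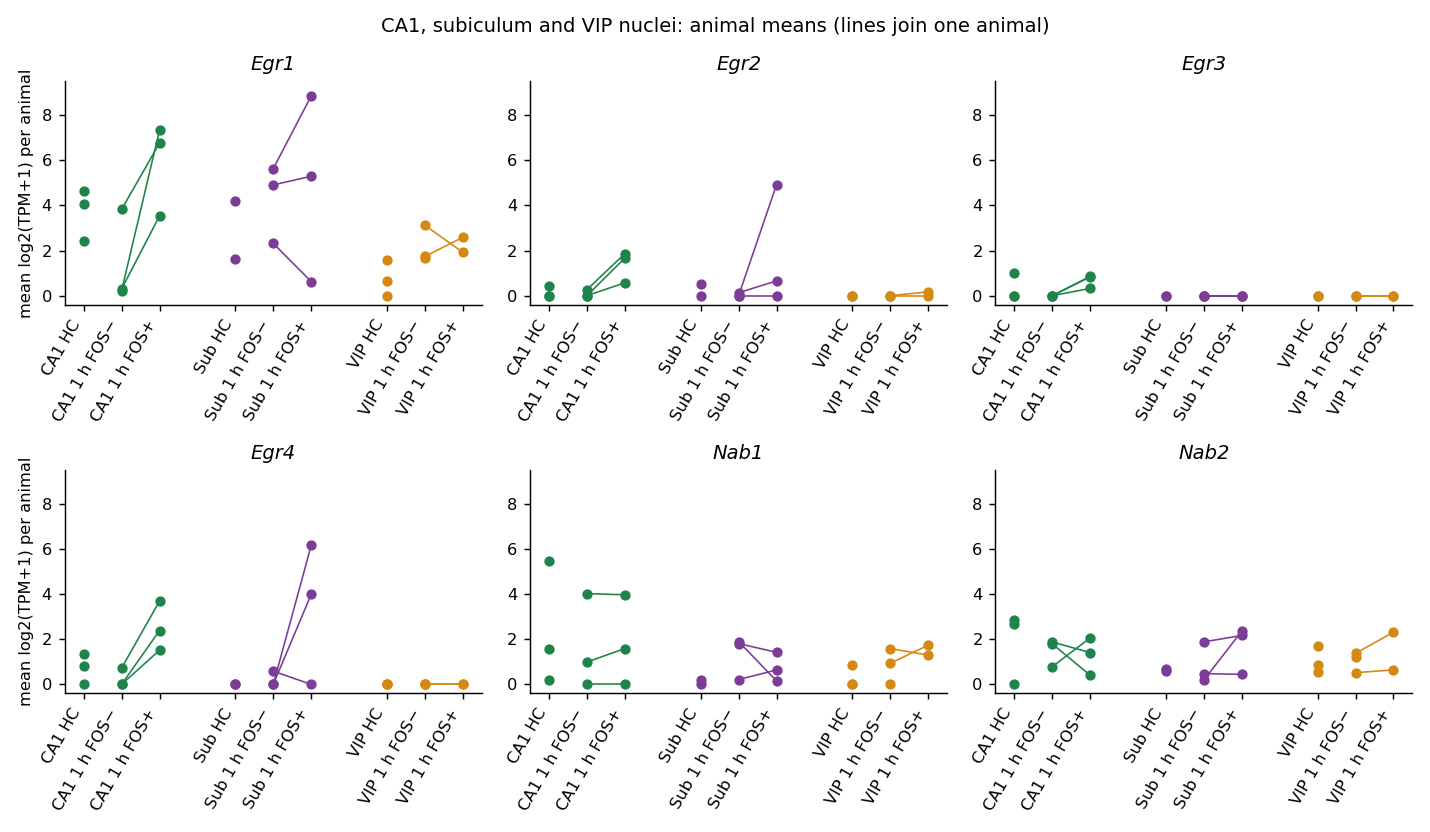
Mean log2(TPM+1) per animal (y axis) for the 6 members in HC, 1 h FOS− and 1 h FOS+ nuclei of CA1 (green), subiculum (Sub, purple) and VIP interneurons (orange), for animals with at least 2 nuclei; lines join FOS− and FOS+ nuclei of 1 animal. All CA1 lines run upward to FOS+ for the 4 Egr genes, whereas in VIP nuclei Egr3 and Egr4 lie at 0 throughout.

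The subiculum had a pattern like CA1 for Egr4 in 2 of 3 animals. Egr4 averaged 3.99, 6.15 and 0 in the FOS+ nuclei of 3 animals and 0, 0 and 0.59 in their FOS− nuclei, and it was detected in 6 of 11 FOS+ and 1 of 12 FOS− nuclei. The animal without Egr4 in FOS+ nuclei was also the lowest for Egr1 there, at 0.63 against 5.29 and 8.84. Egr1 itself did not separate the groups, with detection in 63.6% of FOS+, 66.7% of FOS− and 50.0% of HC nuclei. The edgeR log2 fold change of Egr4 was 8.98 ± 3.28 (SE) with an adjusted p of 0.70, and 0 of 4 members tested were called (0% of genes, 944 below an unadjusted p of 0.05). In CA3, with 2 animals, Egr4 averaged 1.63 and 0 in FOS+ nuclei against 0.12 and 0, and Egr1 3.56 and 4.15 against 3.75 and 1.03. In CA3 edgeR called 0 of 6 members and 0% of genes (687 below an unadjusted p of 0.05).

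In interneurons, Egr1 was the Egr gene that was found in more than 1 nucleus. Egr3 and Egr4 had no count in any of 86 VIP, Pvalb and Ivy nuclei of 9 animals, FOS+ nuclei included, which allows a share of nuclei with a count of up to 3.49%. Egr2 was above 1 in 1 of the 86. In 83 FOS+ nuclei of DG, CA1, CA3 and subiculum, Egr4 was above 1 in 32 (38.6%), Egr2 in 20 and Egr3 in 12. The 86 interneuron nuclei included HC and FOS− nuclei, and those sorted as FOS+ were 27 VIP, 4 Pvalb and 2 Ivy. Egr3 also had no count in subiculum (11 FOS+, 12 FOS− and 10 HC nuclei) or in 21 CA1 FOS− nuclei. Its absence was thus not particular to interneurons. VIP nuclei were sequenced less deeply than principal nuclei. With each nucleus thinned to 100000 counts, Egr4 was found in 51.5% of CA1, 54.5% of subiculum, 15.4% of DG and 15.4% of CA3 FOS+ nuclei, and the VIP share was 0%.

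Egr1 was found in VIP nuclei of both kinds. Its animal means at 1 h were 1.92 and 2.58 in FOS+ and 1.67, 3.11 and 1.74 in FOS− nuclei, and the groups overlapped. HC VIP animals lay lower, at 0, 0.64 and 1.57. Nab1 was detected in 29.6% and Nab2 in 51.9% of VIP FOS+ nuclei (18.5% for Nab2 once thinned), so both corepressors were present in a cell type where Egr3 and Egr4 were not seen. Between VIP FOS+ and FOS− nuclei, and between FOS− and HC nuclei, edgeR called 0 of 3 members tested and 0% of genes, with 713 and 893 genes below an unadjusted p of 0.05.

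In DG 1 h after the NE, all 6 members had their highest value among the 3 groups of the first experiment in FOS+ nuclei, but the FOS+ and FOS− nuclei came from 1 mouse. The means over 26 FOS+ nuclei were 3.88 for Egr1, 2.05 for Egr2, 1.18 for Egr3, 1.08 for Egr4, 1.99 for Nab1 and 2.89 for Nab2. The 27 FOS− nuclei of this mouse gave 1.15, 0.10, 0.50, 0.25, 0.30 and 1.37 in the same order. HC animals gave 0 and 0 for Egr2, 0.58 and 0 for Egr3, 0.02 and 0.34 for Egr4, 0.79 and 0.75 for Nab1, and 0.77 and 1.85 for Nab2. Each FOS+ mean was above both HC animals, but all 6 come from the same nuclei of 1 mouse. The share of all genes for which this held was not counted.

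Egr2 was the member nearest to an on-off pattern. It was detected in 8 of 26 FOS+ nuclei (30.8%, exact interval 14.3 to 51.8), in 1 of 27 FOS− nuclei and in 0 of 25 HC nuclei, which allows a share of up to 12.0%. Egr2 counts summed to 3530 in FOS+ nuclei, 3 in FOS− nuclei and 0 in HC nuclei, at least 880-fold higher than HC in the share of all counts (floor of 3 counts over the group). A single nucleus held 46.5% of the FOS+ counts. Egr1 was detected in 53.8% of FOS+, 18.5% of FOS− and 16.0% of HC nuclei, and Nab2 in 53.8%, 25.9% and 36.0%.

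The edgeR log2 fold change of FOS+ over HC was 3.08 ± 2.00 (SE) for Egr1, 4.00 ± 2.38 for Egr3, 6.66 ± 3.63 for Egr4 and 2.69 ± 1.68 for Nab2. All 6 members were higher and 0 of 6 called, against 0.27% of 24405 genes, with 1439 genes below an unadjusted p of 0.05. Egr2 was called by DESeq2 (adjusted p = 0.049, with 10.4% of genes called) and by limma on animal means (adjusted p = 0.0002, 2.73%). Against FOS− nuclei of the same mouse the log2 fold changes were 4.79 ± 2.78 for Egr1, 3.12 ± 4.08 for Egr4 and 5.21 ± 3.25 for Nab1. Here too 6 of 6 were higher and 0 were called by edgeR (0.0451% of genes, 738 below an unadjusted p of 0.05), while limma called Egr2 (adjusted p = 0.00097, 2.07%). With 1 animal in each 1 h group, these fits, limma included, take its spread from the remaining DG groups, and the spread of Egr2 between 1 h animals was not measured. Between FOS− nuclei and HC edgeR called 0 of 6 members (0.0041% of genes, 683 below an unadjusted p of 0.05).

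An interaction of FOS state with cell type was tested in 1 fit of DG, CA1 and VIP sums. No member was called between DG and CA1 (0 of 6, 0.00458% of genes), DG and VIP (0.00458%) or CA1 and VIP (0%), where 365, 468 and 1278 genes were below an unadjusted p of 0.05, and DESeq2 and limma called none either. The contrasts between cell types above are therefore descriptions of level and detection. For Egr1 the DG difference exceeded that of CA1 by 1.06 ± 3.72 (SE, log2).

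**Figure D3:**
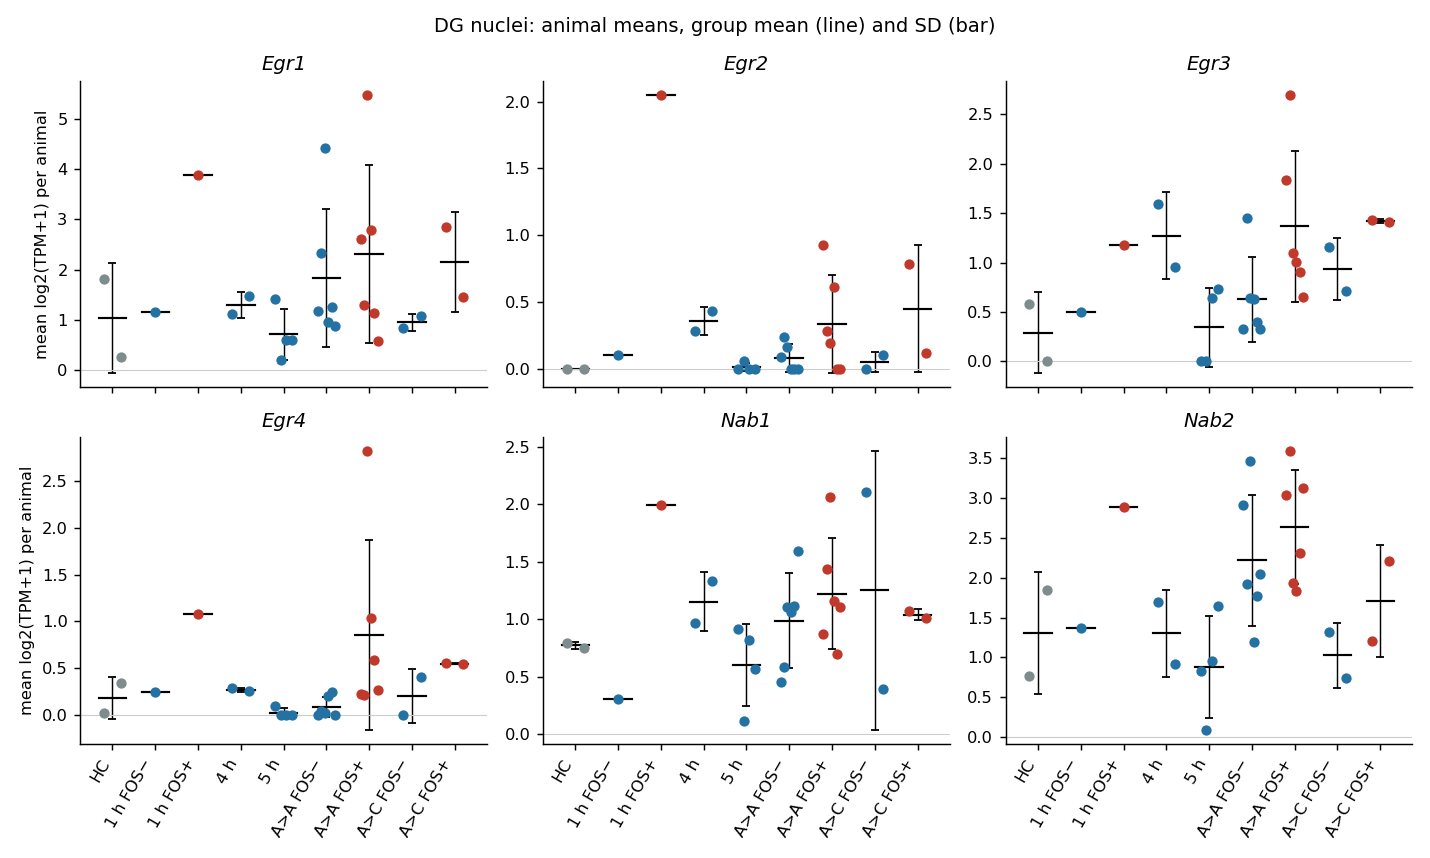
Mean log2(TPM+1) per animal (points, y axis) of the 6 members in the DG groups, with the mean of animals (line) and SD (bar where there is more than 1 animal); grey, HC; blue, FOS−; red, FOS+; animals with at least 2 nuclei. The 1 h groups are 1 animal each, and Egr2 stands highest in 1 h FOS+ nuclei, at 2.05.

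In ARC+FOS− DG nuclei after a single exposure the Egr genes were lower than in 1 h FOS+ nuclei, with Egr3 the exception at 4 h. These ARC+FOS− nuclei came from other mice in the later experiments. The HC and 1 h nuclei were sorted without ARC, so time cannot be told apart from the sort and the experiment. At 4 h the animal means were 1.11 and 1.47 for Egr1, 0.28 and 0.43 for Egr2, and 0.28 and 0.25 for Egr4. Egr3 averaged 1.59 and 0.96, next to 1.18 in the FOS+ nuclei at 1 h and 0.58 and 0 in HC, and was detected in 16 of 68 nuclei (23.5%). At 5 h Egr2 was above 1 in 0 of 59 nuclei and Egr4 in 0 of 59, which allows a share of up to 5.08%, and Egr3 averaged 0, 0, 0.64 and 0.74.

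From 1 h FOS+ to 5 h, the edgeR log2 fold change was −4.27 ± 1.61 (SE, adjusted p = 0.66) for Egr1, −11.86 ± 3.67 (adjusted p = 0.47) for Egr2 and −8.38 ± 2.86 (adjusted p = 0.58) for Egr4. Egr2 had 3530 counts in 1 h FOS+ nuclei and 1 count at 5 h. In this comparison 0 of 6 members were called by edgeR, against 0.107% of genes (1431 below an unadjusted p of 0.05), whereas Egr2 was called by DESeq2 (adjusted p = 0.035, 9.33%) and by limma (adjusted p = 6.9e-05, 1.27%). The 1 h FOS+ group was again 1 mouse in these fits. From 1 h FOS+ to 4 h, edgeR called 0 of 6 (0.0164% of genes, 807 below an unadjusted p of 0.05) and limma called Egr2 (adjusted p = 0.0027, 0.6%). Against HC, edgeR called 0 of 6 members at 4 h (0.246% of genes) and 0 of 6 at 5 h (0.262%), with 1363 and 2506 genes below an unadjusted p of 0.05. The 5 h nuclei had the lowest depth of the DG groups, and thinned to 100000 counts the share with Egr3 was 8.47% at 5 h and 20.6% at 4 h.

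In A>A mice, ARC+FOS+ nuclei were compared with ARC+FOS− nuclei, which lacked FOS 1 h after the second exposure. Egr4 in FOS+ nuclei averaged 0.22, 0.21, 2.82, 1.03, 0.59 and 0.26 in 6 animals (mice 15, 16, 24, 25, 26 and 27). In FOS− nuclei it averaged 0, 0.04, 0.02, 0.21, 0.24 and 0 (mice 19, 20, 24, 25, 26 and 27). The highest FOS− animal, at 0.24, lay below 4 of 6 FOS+ animals, and 5 of 6 FOS− animals lay below the lowest FOS+ animal. The difference was 0.77 (0.86 ± 1.01 against 0.09 ± 0.11, SD, n = 6 each), with p = 0.00866 by a two-sided exact permutation test, not adjusted for the 6 genes tested. This test took the means as independent, although mice 24 to 27 gave a mean to each group. Egr4 was detected in 18 of 130 FOS+ nuclei (13.8%) and 2 of 129 FOS− nuclei (1.55%). Of the 18 FOS+ nuclei 9 came from mouse 24, and in mice 15, 16 and 27 a single nucleus gave all Egr4 counts.

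With any 1 of the 12 animal means left out, the Egr4 difference stayed between 0.38 and 0.90, with an exact permutation p under 0.05 in 12 of 12. The lowest value came without the FOS+ mean of mouse 24, whose FOS− mean stayed in. Within the original cohort (mice 15 and 16 against 19 and 20) the difference was 0.19 with an exact permutation p of 0.333, the smallest that 2 against 2 allow. In the 4 mice that gave both kinds of nuclei, Egr4 was higher in FOS+ nuclei in 4 of 4, and with the animal as a replicate block the difference was 1.06 with an exact permutation p of 0.125, the smallest that 4 pairs allow. The edgeR log2 fold change of Egr4 was 4.94 ± 1.81 (SE, adjusted p = 0.26) and that of Egr2 5.27 ± 2.11 (adjusted p = 0.27). By edgeR 0 of 6 members were called, against 0.041% of genes, with 3762 genes below an unadjusted p of 0.05. DESeq2 called Egr4 (adjusted p = 0.018, 4.53% of genes), and limma called no member.

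Egr3 lay in the same direction with more overlap. Its FOS+ means were 1.83, 2.70, 1.10, 1.01, 0.91 and 0.65 and its FOS− means 0.32, 1.45, 0.65, 0.63, 0.40 and 0.32 in the order above. The difference of 0.74 had an exact permutation p of 0.0563, and FOS+ was higher in 4 of 4 mice with both. For the other members the groups overlapped widely. The difference was 0.47 for Egr1 (exact permutation p = 0.604), 0.25 for Egr2 (p = 0.152), 0.23 for Nab1 (p = 0.396) and 0.42 for Nab2 (p = 0.340). In summed counts Nab2 went the other way. It held 15846 of 205566977 counts in FOS+ and 25673 of 276277963 in FOS− nuclei, a lower share in FOS+. In the edgeR fit 5 of 6 members were higher in FOS+ nuclei. Egr1 in mouse 24 was the highest of its group in both FOS+ (5.48) and FOS− nuclei (4.43).

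**Figure D4:**
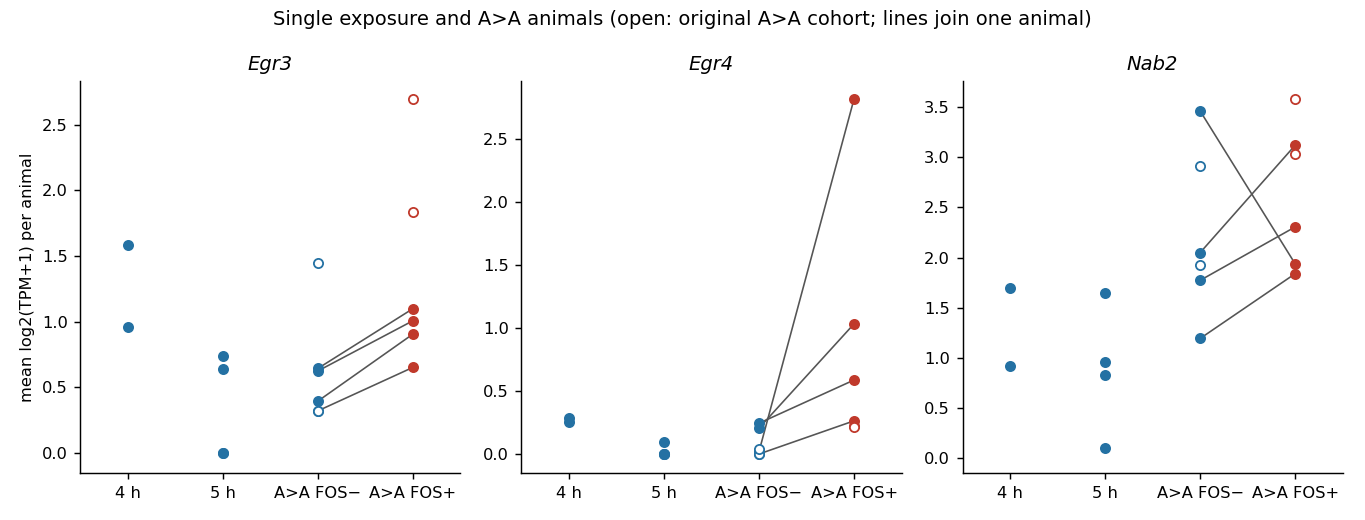
Mean log2(TPM+1) per animal (y axis) of Egr3, Egr4 and Nab2 in ARC+ DG nuclei at 4 h and 5 h after a single exposure and in A>A FOS− (blue) and FOS+ (red) nuclei; open symbols are the original A>A cohort and lines join the 4 mice that gave both. Egr3 and Egr4 lines all run upward from FOS− to FOS+, and 5 of 6 A>A FOS− animals lie above the highest single-exposure animal for Nab2.

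In the A>C mice, FOS+ nuclei came from other animals than FOS− nuclei. Egr4 averaged 0.55 and 0.54 in FOS+ and 0 and 0.41 in FOS− animals, Egr1 2.86 and 1.45 against 0.83 and 1.07, and Egr3 1.43 and 1.41 against 1.16 and 0.71. Egr2 averaged 0.79 and 0.12 against 0 and 0.11, and each group had 2 animals. By edgeR 0 of 6 members were called, and the share of all genes was 0% (1089 had an unadjusted p under 0.05), and DESeq2 and limma called none. A>A and A>C FOS+ nuclei gave 0 of 6 called (0%), and in the test of whether the FOS difference differed between A>A and A>C 0 of 6 were called (0%). These counts come from edgeR, with 1206 and 1068 genes below an unadjusted p of 0.05. Against the 1 h FOS+ nuclei, A>A FOS+ nuclei were lower in Egr2, where 6 animals ranged from 0 to 0.93 next to 2.05 in the 1 mouse at 1 h. The spread of Egr2 between 1 h animals was not measured, so a call here takes it from other DG groups. The groups also differ in sort and experiment. Here edgeR called 0 of 6 (0.0246% of genes, 799 below an unadjusted p of 0.05), and limma called Egr2 (adjusted p = 0.00044, 0.496%).

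Nab2 was the member with the largest difference between A>A FOS− nuclei and nuclei after a single exposure. Its animal means were 2.92, 1.92, 3.46, 1.19, 1.77 and 2.05 in A>A FOS− nuclei. They were 1.69 and 0.92 at 4 h and 0.83, 0.09, 0.95 and 1.65 at 5 h, so that 5 of 6 A>A FOS− animals lay above the highest single-exposure animal. The difference was 1.2 (2.22 ± 0.83 against 1.02 ± 0.59, SD, n = 6 each), with an exact permutation p of 0.0130, not adjusted for the 6 genes tested. It held with any 1 animal left out (0.95 to 1.40, p under 0.05 in 12 of 12) and against the 5 h animals alone, a choice made after seeing the data (1.34, exact permutation p = 0.0190). Between A>A FOS− and 5 h, edgeR gave a log2 fold change of 2.01 ± 0.99 (SE, adjusted p = 0.48) and called 0 of 6 members (0%, 2605 genes below an unadjusted p of 0.05).

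Median depth was 2133171 counts in A>A FOS− nuclei, 2469299 at 4 h and 426841 at 5 h. Nab2 was detected in 38.8% of A>A FOS− nuclei, 29.4% at 4 h and 25.4% at 5 h, and in 31.8%, 25.0% and 15.3% once thinned to 100000 counts. The FOS− nuclei of A>C mice, at 1.32 and 0.74, lay within the range of the single-exposure animals for Nab2. Above that range lay the 6 animals with A>A FOS+ nuclei, at 1.84 to 3.59, a contrast that was not tested. High Nab2 was therefore not particular to A>A FOS− nuclei. The summed level of 13 markers of glia, their precursors and endothelium was 8.25 in A>A FOS− nuclei, 6.99 at 4 h and 8.34 at 5 h, and its part in the result was not tested. For the 5 other members the differences ranged from −0.05 to 0.94, and the smallest exact permutation p was 0.128 (Egr1).

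Nuclei with several Egr genes were counted, a share that also rises with how often each gene is detected on its own. In CA1 FOS+ nuclei those single shares were 84.8%, 27.3%, 12.1% and 54.5% for Egr1 to Egr4. Whether genes met in a nucleus more often than such shares imply was not tested. At least 2 of the 4 Egr genes were above 1 in 19 of 33 CA1 FOS+ nuclei (57.6%), 2 of 21 FOS− nuclei (9.52%) and 4 of 19 HC nuclei (21.1%). In DG this share was 30.8% (8 of 26) in 1 h FOS+, 3.70% in 1 h FOS− and 4.00% in HC nuclei. It was 20.0% (26 of 130) in A>A FOS+ and 6.98% in A>A FOS−, 20.8% in A>C FOS+ and 4.35% in A>C FOS−. It was 7.35% at 4 h and 3.39% at 5 h. FOS+ nuclei thus held the higher share in each sorted DG pair.

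In CA1 FOS+ nuclei Egr1 was above 1 in 28 of all 33, in 17 of 18 with Egr4, in 8 of 9 with Egr2 and in 3 of 4 with Egr3. In DG 1 h FOS+ nuclei it was above 1 in 14 of all 26, in 7 of 8 with Egr2, 3 of 7 with Egr3 and 3 of 5 with Egr4. In A>A FOS+ nuclei it was above 1 in 46 of all 130, in 6 of 7 with Egr2, 14 of 32 with Egr3 and 12 of 18 with Egr4. How often Nab2 was found beside Egr1 differed between groups, without a test. Of 14 DG 1 h FOS+ nuclei with Egr1, 5 had Nab2, and of 12 without it, 9 had Nab2. In CA1 Nab2 was found in 12 of 28 FOS+ nuclei with Egr1 and 2 of 5 without, and in 7 of 12 HC nuclei with Egr1 and 1 of 7 without. In A>A FOS− nuclei it was found in 19 of 39 with Egr1 and 31 of 90 without, and in A>A FOS+ nuclei in 17 of 46 with and 43 of 84 without. All nuclei of the DG 1 h groups share 1 mouse, and a gene may go undetected in a nucleus that expresses it.

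**Figure D5:**
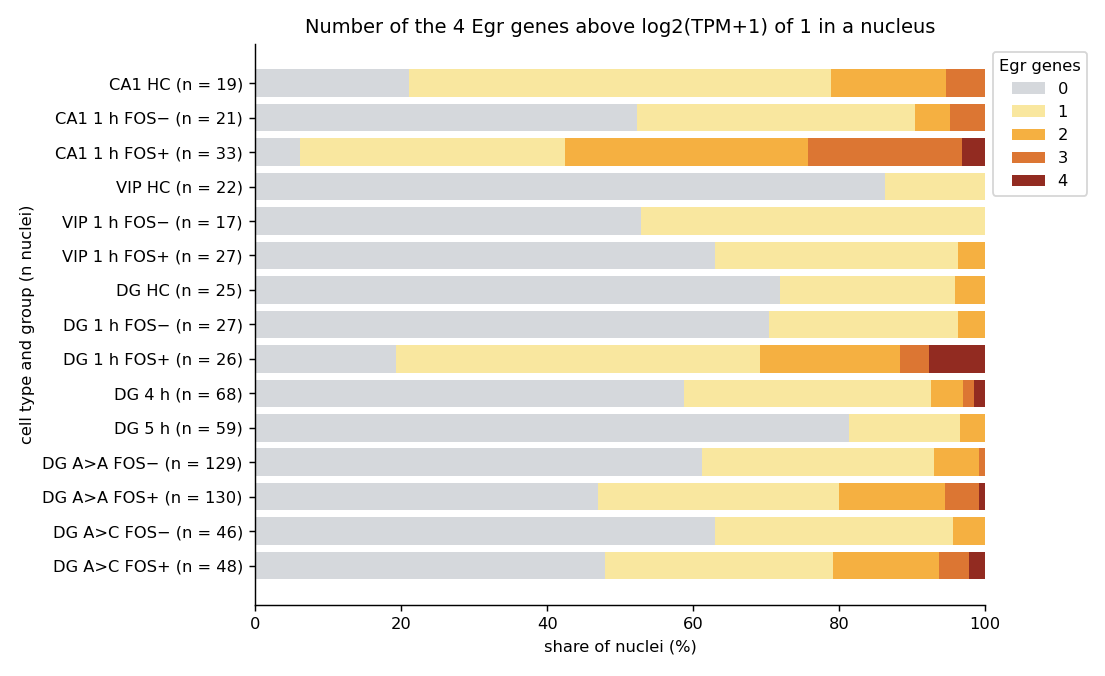
Share of nuclei (x axis, percent) with 0, 1, 2, 3 or 4 of the Egr genes above log2(TPM+1) of 1, for CA1, VIP and DG groups (rows, with the number of nuclei). CA1 FOS+ nuclei, with 57.6% at 2 or more genes, stand farthest from the VIP groups, where 1 nucleus reached 2.

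Other genes of the pathway were followed by 4 lists, of which edgeR called Arc alone. The 9 described EGR targets include Arc, whose product serves AMPA receptor removal. Arc was higher in DG 1 h FOS+ nuclei than in HC (log2 fold change 12.6) and than in FOS− nuclei (10.6), where the call was lost with the animal as a replicate block (edgeR adjusted p = 0.14, with 0 genes called). It was lower at 5 h than in 1 h FOS+ nuclei (log2 fold change −2.23, adjusted p = 0.049, and 0.11 with DESeq2 size factors). Arc was used to filter the HC and 1 h FOS− nuclei and its protein to sort the later ones, so its contrasts with those groups are partly set by the selection. Of the other targets tested, 0 were called in these comparisons.

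Of 10 genes of the ERK cascade and its feedback, 0 were called in DG FOS+ nuclei against HC, with Spry2, an inhibitor of the cascade, at the smallest p (log2 fold change 3.69, adjusted p = 0.077), and the list's median log2 fold change was 1.03 against 0 over all genes. In CA1 FOS+ against FOS− nuclei, 9 of these 10 were higher (median 2.25, all genes −0.01) and 0 called. Dusp1, a phosphatase that switches off MAP kinases, had the smallest p. Of the 8 upstream factors (SRF, its partners and CREB family members) 6 were higher in DG FOS+ than HC nuclei (median 1.47) and 0 called, with Crem, a cAMP-responsive factor, at the smallest p. Of 8 genes of the complex that NAB proteins recruit, 4 were higher (median −0.07) and 0 called. Rbbp7, a histone-binding subunit, had a log2 fold change of 1.87 (adjusted p = 0.11). In A>A FOS+ against FOS− nuclei 0 genes of the 4 lists were called, and the ERK list had a median of 0.85 (all genes −0.02).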

How the data were processed

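Single-nucleus RNA-seq (SmartSeq2) libraries were sequenced by the authors with single-end 50-bp reads, trimmed, aligned with Bowtie and quantified with RSEM on GRCm38 (mm10) with an Ensembl annotation whose release is not given in the sources used here. The deposited expected counts per gene were not normalised, and the deposited log2 values are log2(TPM+1) as the authors computed them. Genes without a value (30 and 23 rows) were dropped. Nuclei needed 100000 aligned reads by the deposited labels and 4000 genes, the limits of the study, and a gene was counted here above log2(TPM+1) of 1. FOS− HC and 1 h nuclei with Arc above 2.5 were removed.

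Expected counts were summed over the nuclei of each animal and group (at least 2 nuclei), rounded and tested with the quasi-likelihood test of edgeR 4.0.16 (R 4.3.3) with Benjamini-Hochberg adjustment at 0.05, in place of the per-nucleus ROTS test of the study, because nuclei of 1 animal are not replicates. DESeq2 1.42.0 and limma 3.58.1 on animal means were alternatives. Animal means of A>A and single-exposure nuclei were compared by two-sided exact permutation tests (6 against 6, smallest p 0.00216). For A>A FOS+ against FOS− this ignored that 4 mice gave both kinds of nuclei, and the paired form was run on those mice alone. The edgeR test was checked on simulated data. At the wider simulated spread it missed every smaller change. It also missed nearly all larger ones in CA1 and a part of them in A>A. The data were spread wider still (common dispersion 1.95 in the DG fit and 1.74 in the CA1 fit), so a count of 0 does not show that members did not differ. Detection intervals are exact Clopper-Pearson intervals at 95%, which like the upper limits (3 nuclei of the total) cover counting error only. Animals were 1 to 6 per group, and p-values measure the spread between animals.

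The 6 members and the 4 pathway lists were chosen with earlier results of these data known. Named genes were the members, called list genes, list genes with the smallest p and the genes closest to each member over DG means. FOS+ and FOS− nuclei of one animal are paired by the labels, and their deviations from group means correlated slightly more within than between animals (0.040 against −0.020 in CA1, 0.041 against −0.005 in A>A). Mice 19 and 20, sorted on 2 dates, were each counted as 1 animal.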

Additional observations from a re-analysis of the deposited data

Results flagged for a closer look

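In 4 of the 18 sets of animal means examined, 1 animal stood apart from the rest of its group by Dixon's criterion, and chance alone gives about 1 in 20. Egr4 in A>A FOS+ nuclei was 2.82 in mouse 24, and the next animal was at 1.03. Egr3 in A>A FOS− nuclei was 1.45 in mouse 20, with the next at 0.645. At 5 h, Egr2 was 0.0631 in mouse 23 and 0 in the other 3 animals, and Egr4 was 0.0918 in mouse 22 and 0 in the other 3. With 3 animals at 0, any value above 0 is picked out by this criterion, and neither gene was above 1 in any 5 h nucleus, so the 4 sets cannot be read against the share that chance gives.

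The FOS− CA1 nuclei left out for high Arc transcript carried Egr1 transcript above that of the nuclei kept. In HC their mean was 6.39 (15 of 16 nuclei above 1, 2 animals), against 3.92 in the nuclei kept (12 of 19). At 1 h it was 4.81 (8 of 11), against 2.46 (10 of 21). The difference was not tested.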

How the results depend on the processing

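The count of members called by edgeR was 0 in all 26 comparisons. It was also 0 in each fit with 1 animal left out, with DESeq2 size factors, without the filter on low counts and with FOS− nuclei kept whatever their Arc, which with so few animals is no sign of stability. No animal could be left out in DG 1 h FOS+ against FOS− or in CA3, nor the 1 mouse of the DG 1 h groups elsewhere. DESeq2 called 1 member in DG 1 h FOS+ against HC, 5 h against 1 h FOS+, A>A FOS+ against FOS− and CA1 FOS− against HC, and 2 in CA1 FOS+ against FOS−. limma called 1 in DG 1 h FOS+ against HC and against FOS−, and in 4 h, 5 h and A>A FOS+ against 1 h FOS+. Over all genes the tools also differed, with 66 (edgeR), 1776 (DESeq2) and 627 (limma) genes called in DG 1 h FOS+ against HC, and 10 (edgeR) and 878 (DESeq2) in A>A FOS+ against FOS−. The cause was not tested. Sums of at least 5 nuclei could not be fitted in the subiculum.

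For A>A FOS+ minus FOS−, with exact permutation p-values, Egr4 was 0.194 in the original cohort (p = 0.333) and 1.06 with the animal as a replicate block (p = 0.125), both the smallest p those designs allow. The block changed no other call of a member. Leaving out 1 animal, Egr3 lay between 0.474 and 0.904 and Egr1 between −0.160 and 0.993, with the lowest Egr1 value without mouse 24 FOS+. Egr3 passed 0.05 as log2(mean TPM+1) (1.44, p = 0.0368), without read and gene thresholds (0.714, p = 0.0498), without FOS+ mouse 27 (0.883, p = 0.0346) and without FOS− mouse 20 (0.904, p = 0.00433). In the second cohort the unpaired test of Egr3 gave p = 0.0286 (0.419). All 4 mice of that cohort gave both kinds of nuclei, and with them paired the exact permutation p was 0.125, the smallest possible.

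For A>A FOS− minus single exposure, Nab2 was 1.40 in the original cohort (exact permutation p = 0.0714). Differences near 0 turned sign. Egr2 was 0.0348 in the original cohort and 0.0666 against 5 h alone, and ranged from −0.0794 to 0.0130 with 1 animal left out. Egr3 was 0.276 as log2(mean TPM+1), 0.0223 without thresholds, 0.230 in the original cohort and 0.282 against 5 h alone, and ranged from −0.192 to 0.159 with 1 animal left out. Egr4 was 0.0126 in the second cohort and 0.0625 against 5 h alone, and ranged from −0.0510 to 0.0167. Nab1 was −0.266 in the original cohort. The comparison with 5 h alone was chosen after seeing the data.

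Of 240 alternative detection shares, 216 stayed within the exact interval of the reported share and 24 moved out of it, among them Nab2 in CA1 FOS+ nuclei, at 18.2% once thinned to 100000 counts.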

Other observations

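The genes whose level followed each member most closely were found over 26 animal-by-group means of DG nuclei, as Pearson's r across these means. The means share animals, libraries and the FOS and ARC sorts, and r is a description without a test. Egr1 was closest to Capn6 (0.78), to Fos (0.76), whose protein was used in the sort, and to Cycs (0.75), which encodes cytochrome c. Egr2 was closest to Arl5b (0.81), the nuclear receptor IEG Nr4a3 (0.80) and Rwdd4a (0.80). Egr3 was closest to 2410002F23Rik (0.81), Fyttd1 (0.80) and the clathrin heavy chain gene Cltc (0.80). Egr4 was closest to the microRNA gene Mir132 (0.83), Gm26835 (0.79) and Fos (0.78). For the corepressors the closest values were lower, at 0.67 for Gm29371 with Nab1 and 0.71 for Efcc1 with Nab2. Between members the highest r was 0.69, of Egr1 with Egr4, while Egr1 and Nab2 gave 0.35.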
